A study of Mus musculus with 27 samples.

Results

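Integrins are the receptors by which cells hold on to the extracellular matrix and to each other, and the focal adhesion core is the set of adaptor proteins that tie them to actin inside the cell. The 37 genes described here were chosen by name, with earlier results of these data known. They are 25 integrin subunits and 12 focal adhesion adaptors among the 53379 genes of the count table. All 37 were found in the table, and 34 had enough counts to be tested. Itga10, Itgae and Itgb6 did not.

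Each integrin is a pair of 1 alpha and 1 beta subunit, and the pair decides the ligand. Pairs of beta1 with alpha1, alpha2, alpha10 or alpha11 bind collagens, those with alpha3, alpha6 or alpha7 bind laminins, and the pairs of alpha5, alpha8, alphav and alphaIIb recognise the RGD motif of proteins such as fibronectin. Alphav pairs can also release active TGF-beta from its latent complex. Talins and kindlins bind the tail of the beta subunit and switch the receptor on, ILK, PINCH and parvin form a complex at the same tail, and vinculin, paxillin and zyxin are recruited as a contact grows under tension. In hepatic stellate cells (HSCs), the retinoid-storing pericytes of the liver that turn into matrix-producing myofibroblasts after injury, integrins are known for sensing that matrix and for activating TGF-beta.

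HSCs of male Balb/c mice were sorted by flow cytometry on retinoid fluorescence under UV light, which selects for cells that still hold retinoid, and their RNA was sequenced in bulk without culture. Healthy mice of 10 to 12 weeks of age received no injection, not even of the oil vehicle, and gave 4 libraries. The acute groups received 1 intraperitoneal injection of carbon tetrachloride (CCl4), a hepatocyte toxin, at 10 to 12 weeks and were collected after 24 h (3 libraries), 72 h (4) or 7 d (4). The chronic groups received 8 injections over 4 weeks, starting at 8 to 10 weeks, and were collected 24 h, 72 h or 14 d after the last one (4 libraries each). Each injection held 0.5 µL of CCl4 per g of body weight in mineral oil. All injected groups therefore share oil and CCl4, and the effect of the oil cannot be told apart from that of CCl4. Age at collection of the chronic mice, who aged over their 4 weeks of injections, was not matched to that of healthy and acute mice. Its effect cannot be told apart from that of the repeated injections. The labels and methods do not say whether cells of several mice were pooled.

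Total counts lay between 6.31 and 13.1 M per library. Replicates 1 and 2 of chronic 24 h and of chronic 72 h and all 4 libraries of chronic 14 d had less than 9 M, and all others had more than that. The 14 HSC markers summed to 16423 to 49898 CPM (counts per 1000000 counts of the library, after TMM scaling) in a library with none at 0, with the highest library in healthy and the lowest in chronic 24 h. Genes of other liver cells were present too. Macrophage markers (14 genes) summed to 170.1 to 701 CPM in healthy, acute 24 h and acute 72 h libraries and to 375 to 4121 CPM in the 4 other groups. In such bulk samples fewer cells of a type and less RNA per cell cannot be told apart.

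A set of 4 stretches of DNA shows the start sites of members that the results turn on. Itga5 rose at 24 h after injury, Itga8 fell at 24 h after a single injection, Itgb5 was higher after repeated than after a single injection, and Vcl was lower at chronic 14 d than at chronic 24 h. Each stretch is the 250 bases before the RefSeq start site on the build GRCm38.p6, read 5′ to 3′ on the strand of the gene. The stretch of Itga5 lies at chr15:103366792-103367041 (minus strand), that of Vcl at chr14:20929148-20929397 (plus strand), that of Itgb5 at chr16:33829415-33829664 (plus strand) and that of Itga8 at chr2:12301945-12302194 (minus strand). An antisense RNA, E030013I19Rik, overlaps an exon of the Itga8 gene.
Itga5: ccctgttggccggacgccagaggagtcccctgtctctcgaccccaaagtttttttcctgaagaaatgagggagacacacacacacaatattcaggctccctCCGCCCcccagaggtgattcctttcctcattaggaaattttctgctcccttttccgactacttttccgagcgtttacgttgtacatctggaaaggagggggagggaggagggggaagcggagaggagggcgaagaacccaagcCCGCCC
Vcl: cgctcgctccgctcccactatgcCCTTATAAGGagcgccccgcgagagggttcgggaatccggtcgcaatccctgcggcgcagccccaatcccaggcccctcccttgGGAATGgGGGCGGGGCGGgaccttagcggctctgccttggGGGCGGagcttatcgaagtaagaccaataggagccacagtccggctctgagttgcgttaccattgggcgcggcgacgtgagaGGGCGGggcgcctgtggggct
Itgb5: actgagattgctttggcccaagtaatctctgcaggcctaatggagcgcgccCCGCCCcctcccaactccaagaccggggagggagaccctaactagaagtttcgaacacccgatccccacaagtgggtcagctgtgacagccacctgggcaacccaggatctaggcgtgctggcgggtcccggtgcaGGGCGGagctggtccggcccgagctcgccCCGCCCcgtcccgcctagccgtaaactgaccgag
Itga8: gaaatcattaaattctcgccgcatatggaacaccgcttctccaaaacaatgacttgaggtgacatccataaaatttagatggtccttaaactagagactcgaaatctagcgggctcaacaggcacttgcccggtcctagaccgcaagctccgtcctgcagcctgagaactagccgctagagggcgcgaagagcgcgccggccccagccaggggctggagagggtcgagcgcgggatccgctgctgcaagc
Capitals mark matches on either strand to the SRF CArG box, to GGAATG (TEAD factors), to TGANTCA (AP-1) and to GGGCGG (SP1). Vcl held a CArG box 227 to 218 bases before the start, a GGAATG 143 to 138 bases before it and 4 GGGCGG, of which a pair overlapped. Itga5 held 2 GGGCGG and Itgb5 held 3, without any of the other motifs. Itga8 held no match to any of the 4. Among all 32851 RefSeq promoters cut to the same length, 1.47% held a CArG box, 12.6% GGAATG, 6.75% TGANTCA and 32.7% GGGCGG. The 31 promoters of the 26 members in that table held them in 3, 3, 2 and 13 cases. The CArG boxes were in Fermt2, Itgb6 and Vcl. A match is a string of letters and not a site shown to be bound.

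RNA levels of the subunits were set beside each other per exon length, in CPM per kb, and are not levels of receptor. The length is that of all annotated exons of a gene. Itga1, with 18599 bases, therefore came lower in the healthy order than by CPM. Among alpha subunits in healthy libraries, Itga9 (62.2) and Itga8 (52.3) came highest and their libraries overlapped. Itga1 (34), Itga2b (16.3), Itgav (10.8) and Itga5 (9.29) followed, and of these neighbours Itgav and Itga5 overlapped. At acute 24 h the order was another. Itga5 came to 91.8 and overlapped with Itga9 at 50.04, and Itga8 stood at 6.36, below Itgav. At chronic 24 h Itga9 (89.7), Itga5 (75.3) and Itga8 (58.9) formed an overlapping series. Itga8 headed the order in the remaining groups, with 62.3 at acute 72 h, where it overlapped with Itga9, and 72.4 at acute 7 d, 134 at chronic 72 h and 117 at chronic 14 d, where it did not. These orders are descriptions of levels and carry no test.

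Among beta subunits Itgb1, the common partner, was highest in healthy libraries at 321 CPM per kb, ahead of Itgb5 (115) and Itgb3 (36.1), with no overlap between them. Itgb3 came before Itgb5 only at acute 24 h (85.4 against 66.9, no overlap). Itgb5 reached 218 at acute 7 d and 194 at chronic 72 h, where its libraries overlapped with those of Itgb1 (264 and 186). Itgb2, the beta subunit of leukocytes, stood at 1.27 in healthy libraries and at 28.6 at acute 7 d, where it lay above Itgb3. Fermt2, kindlin-2, was the highest adaptor in all 7 groups, with 183 in healthy and 83.9 at acute 7 d, and overlapped with Zyx at acute 7 d and chronic 24 h.

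**Figure D1:**
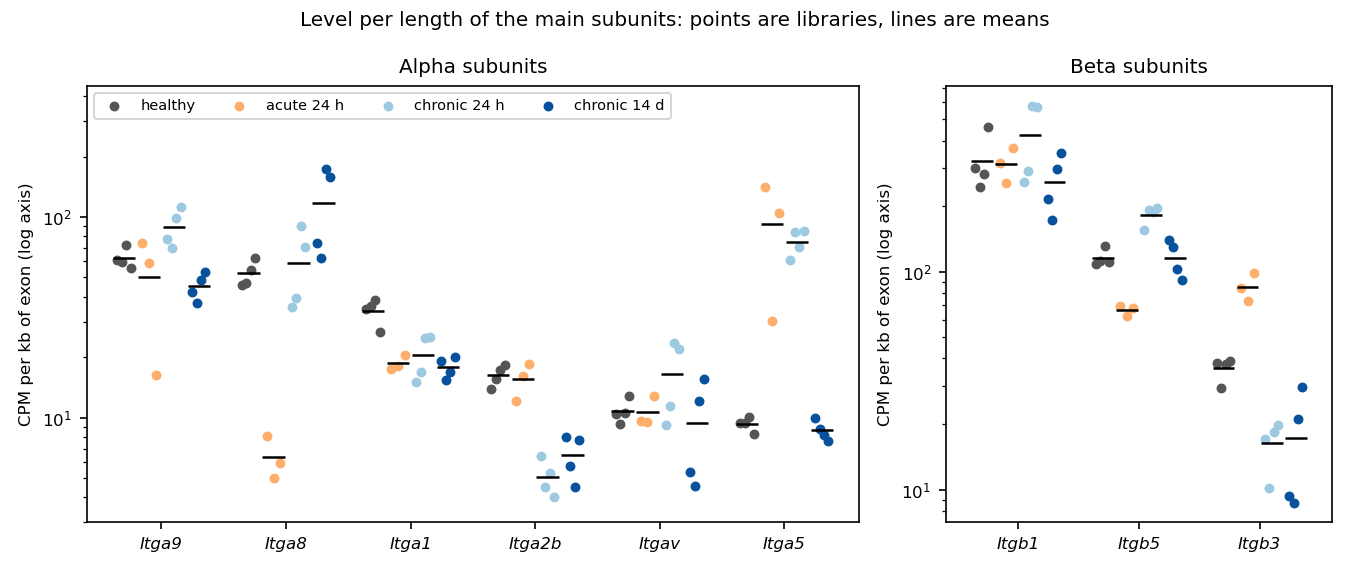
Level per exon length (CPM per kb, log axis) of 6 alpha and 3 beta subunits in healthy, acute 24 h, chronic 24 h and chronic 14 d libraries, with points for libraries and lines for means. Itga5 lies at 9.29 in healthy, 91.8 at acute 24 h, 75.3 at chronic 24 h and 8.62 at chronic 14 d, while Itga8 falls to 6.36 at acute 24 h and Itgb3 is above Itgb5 in that group alone of the 4 drawn.

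Comparisons between groups used edgeR's quasi-likelihood test across all 18758 genes with enough counts. A gene was called higher or lower, and is said to have risen or fallen, where the Benjamini-Hochberg adjusted p was below 0.05 and the change above 2-fold. The 6 comparisons with healthy mice share the same 4 control libraries, so they are not independent of each other. Groups often did not overlap. At acute 24 h 3693 of the 18758 genes lay above all healthy libraries and 3776 below. These counts were 2673 and 1757 at acute 72 h, and 2698 and 1925 at acute 7 d. At chronic 24 h they were 2761 and 2182, at chronic 72 h 2243 and 1715, and at chronic 14 d 1301 and 1198. From chronic 24 h to chronic 14 d they were 2100 and 2518. A lack of overlap is given below as a description only. Of the 34 members tested, 28 were called in at least 1 of the 8 comparisons. Itga9, Itgav, Itgb1, Itgb4, Lims1 and Pxn were called in none of them.

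At acute 24 h Itga5, Itgb3 and Itgb8 rose among the integrins, with Itgam, and Zyx, Ilk, Lims2 and Fermt3 rose among the adaptors. Itga8, Itga6, Itgal, Tln2 and Parvb fell. These are 8 members higher and 5 lower, or 23.5% and 14.7% of the 34, where 9.41% and 12.5% of all genes tested were called, so that the share of lower members was near that of all genes. The median log2 fold change was -0.03 over the members and -0.12 over all genes. Without the leukocyte integrins 7 of 29 were higher (24.1%) and 4 lower (13.8%). Fermt3, the kindlin of blood cells, was still among the higher ones. Leaving out 1 library at a time gave 5 to 8 members higher and 2 to 4 lower, the fewest higher without healthy replicate 1 or 2 or acute 24 h replicate 1.

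At acute 72 h few members differed from healthy. Itga2 and Itgam rose, and Itga2b and Tln2 fell. The shares of 5.88% higher and 5.88% lower compare with 8.23% and 4.33% of all genes, and the medians were 0.11 over the members and 0.00 over all genes. By acute 7 d all 5 leukocyte integrins tested, Itga4, Itga2, Itga6, Itga11 and Fermt3 had risen, and Itga2b, Itgb3, Parva, Tln1, Tln2 and Fermt2 had fallen. This is 29.4% higher and 17.6% lower, where 9.23% and 5.64% of all genes were called. The medians were 0.34 and 0.01. Outside the leukocyte integrins 5 of 29 were higher (17.2%) and 6 lower (20.7%). The higher ones still included Itga4, carried mainly by leukocytes, and Fermt3.

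After the chronic course, at 24 h, 11 members were higher (32.4%, where 11.2% of all genes were) and 3 lower (8.82%, near the 8.11% of all genes). Itga5, Itga11, Itga2, Itga4, the 5 leukocyte integrins, Lims2 and Fermt3 rose. Itga2b, Itgb3 and Tln2 fell. The median was 0.61 over the members and -0.03 over all genes. Outside the leukocyte integrins 6 of 29 were higher (20.7%) and 3 lower (10.3%), and Itga4 and Fermt3 were still among the higher ones. In the libraries of higher depth alone, an alternative chosen after the data had been seen, 9 of these 14 calls were kept. The calls of Itga4, Itgal, Itgb7, Itgb3 and Fermt3 were lost. Of chronic 24 h this alternative kept only replicates 3 and 4, so depth cannot be told apart from other differences between these replicates and replicates 1 and 2.

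At chronic 72 h 9 members were higher (26.5%, against 7.88% of all genes) and 6 lower (17.6%, against 4.2%). Itga8, Itga11 and Itga4 rose with the 5 leukocyte integrins and Fermt3, and Itga1, Itga2b, Itgb3, Tln1, Tln2 and Fermt2 fell. The medians were -0.05 and 0.00. Outside the leukocyte integrins 4 of 29 were higher (13.8%), among them still Itga4 and Fermt3, and 6 lower (20.7%). The count of higher members fell to 5 without healthy replicate 1 or 2, and it was 3 (Itga11, Itga8 and Itgb2) when only these 2 groups were fitted. Itga4, Itgal, Itgb7, Fermt2 and Fermt3 lost their calls in the libraries of higher depth alone, and the 10 other calls were kept. Of chronic 72 h this alternative again kept only replicates 3 and 4.

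At chronic 14 d, after recovery, 7 members were higher than in healthy HSCs (20.6%, against 4.55% of all genes) and 3 lower (8.82%, against 1.17%). Itga4, Itga7, Itgam, Itgax, Itgb2, Itgb7 and Fermt3 were higher, and Itga2b, Itgb3 and Tln2 lower. The medians were -0.04 and -0.03. All libraries of this group were of lower depth and all healthy ones of higher depth, so this comparison could not be repeated within a depth class. With depth class as a term of the model 4 members were higher, Itgam and Itgax of the 7 and besides them Itga8 and Itga11. Leaving out 1 library at a time gave 3 to 7 higher, with the fewest without healthy replicate 2. It gave 1 to 5 lower, with 5 when healthy replicate 4 was left out and 1 without chronic 14 d replicate 2 or 3.

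Between chronic 14 d and chronic 24 h, which asks what receded in recovery, Itga5, Vcl, Itga3 and Itga11 were lower (11.8%, against 6.11% of all genes) and edgeR called 0 members higher (6.65% of all genes were). At an unadjusted p below 0.05 edgeR gave 2 members higher and 13 lower. The share of all genes at that p was not counted, so these counts cannot be set beside it. DESeq2 called 2 members higher, Itga8 and Tln2, where it called 1569 of the 18394 genes with an adjusted p higher. The medians were -0.59 and 0.01. Leaving out chronic 24 h replicate 1 raised the count of lower members to 7, and 1 or 2 members were higher when replicate 1 or 3 of chronic 24 h or any of replicates 2, 3 and 4 of chronic 14 d was left out.

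Repeated against single injury was compared at the same 24 h after injection. Itga8, Itgb5, Itga11, Itga4, Itga6, Parvb and the 5 leukocyte integrins were higher after repeated injury (32.4%, against 10.9% of all genes). Itgb3, Itga2b and Itgb8 were lower (8.82%, against 3.05%). The median was 0.60 over the members and 0.01 over all genes. Outside the leukocyte integrins 6 of 29 were higher (20.7%), among them still Itga4, and 3 lower (10.3%).

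**Figure D2:**
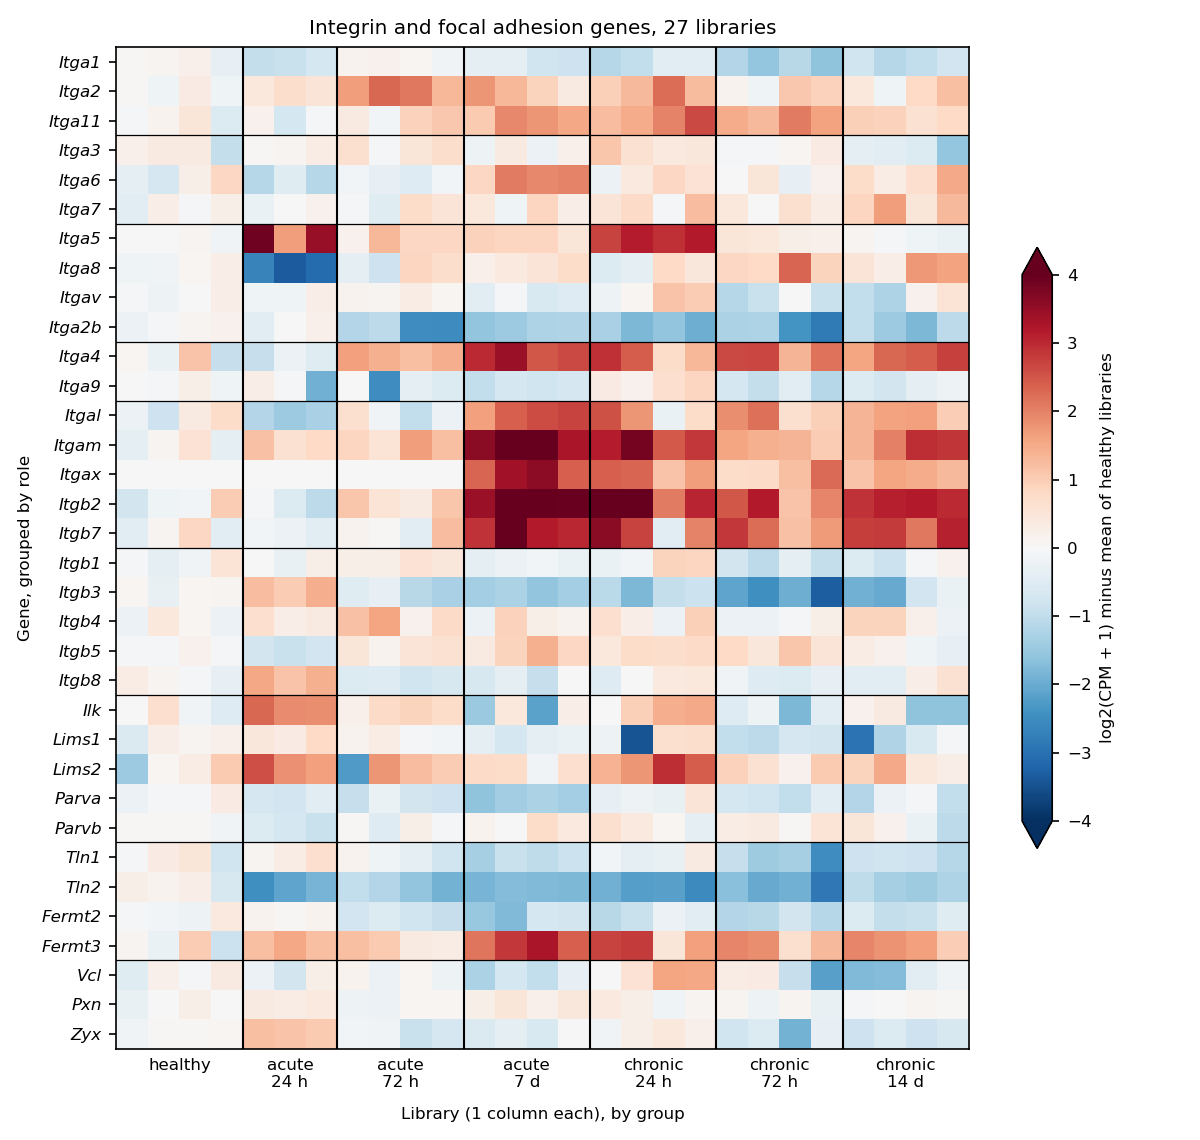
Each of the 34 tested members (rows, grouped by role) in each of the 27 libraries (columns), as log2(CPM + 1) minus the mean of the healthy libraries, with colours ending at 4 and -4. Itga5 is deep red in the acute 24 h and chronic 24 h columns, Itga8 blue at acute 24 h and Tln2 blue in all injured groups. The leukocyte integrins are red at acute 7 d and in the chronic groups, apart from Itgal and Itgb7 in chronic 24 h replicate 3.

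The largest change of an RGD-binding subunit was that of Itga5, the fibronectin receptor (ENSMUSG00000000555, chr15:103344286-103366763, minus strand). It was at 46.4, 46.1, 49.9 and 41 CPM in healthy replicates 1 to 4, and all values below are given in the order of the replicates. Acute Itga5 values were 693, 149 and 517 CPM at acute 24 h, 52.1, 117, 81.7 and 81.9 CPM at acute 72 h and 88.4, 83.6, 83.6 and 64.8 CPM at acute 7 d. After repeated injections Itga5 was at 301, 414, 350.1 and 419.7 CPM at chronic 24 h, 63.7, 61.3, 54.1 and 52.3 CPM at chronic 72 h and 49, 43, 40.4 and 37.6 CPM at chronic 14 d. It was thus highest at 24 h after either course, every library of the acute groups and of chronic 24 h and 72 h was above every healthy one, and the chronic 14 d libraries overlapped with healthy ones. Acute 24 h replicate 2 was far below the other libraries of its group, yet above every healthy one. Itga5 rose in acute 24 h (log2 fold change 3.30 ± 0.32 SE, edgeR adjusted p = 7.3e-08) and chronic 24 h libraries (log2 fold change 3.02 ± 0.30 SE, edgeR adjusted p = 9.31e-08). It was lower at chronic 14 d than at chronic 24 h (log2 fold change -3.13 ± 0.30 SE, edgeR adjusted p = 2.2e-07). The difference between chronic 24 h and acute 24 h was not called (log2 fold change -0.29, edgeR adjusted p = 0.54). All 3 calls were kept in every alternative tried.

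Itga8, the alpha subunit that pairs with beta1 to bind nephronectin and other RGD ligands (ENSMUSG00000026768, chr2:12106632-12301922, minus strand), went the other way at acute 24 h. It was at 336, 345, 402 and 459 CPM in healthy libraries. After 1 injection Itga8 was at 59.7, 36.9 and 43.9 CPM at acute 24 h, 295, 216, 698 and 626 CPM at acute 72 h and 444, 501, 546 and 641 CPM at acute 7 d. After repeated injections Itga8 was at 263, 292, 663 and 519.9 CPM at chronic 24 h, 678, 659, 1907 and 714 CPM at chronic 72 h and 548, 463, 1278 and 1165 CPM at chronic 14 d. All 3 acute 24 h libraries lay below every other library of the series. Itga8 fell at acute 24 h (log2 fold change -3.04 ± 0.49 SE, edgeR adjusted p = 4.1e-05) but not at the same time after repeated injury, where it was higher than after a single one (log2 fold change 3.21 ± 0.49 SE, edgeR adjusted p = 5.57e-05). It rose at chronic 72 h (log2 fold change 1.36 ± 0.41 SE, edgeR adjusted p = 0.0201). That call was lost without chronic 72 h replicate 3, which stood far above the other 3, and without healthy replicate 1 or 2. At chronic 14 d it was not called (log2 fold change 1.16, edgeR adjusted p = 0.0767). An antisense RNA, E030013I19Rik, overlaps an exon of Itga8 on the other strand and had a mean of 4.84 ± 0.605 CPM at acute 24 h (SD, n = 3) and 65.8 ± 14.2 CPM at chronic 72 h (n = 4). The strand of counting is not stated, so reads of the pair cannot be told apart.

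Itga2b, the alphaIIb subunit known from platelets (ENSMUSG00000034664, chr11:102453297-102470122, minus strand), was at 75.4, 84.7, 94.5 and 99.996 CPM in healthy HSC libraries. Acute Itga2b values were 65.9, 88.1 and 100.6 CPM at acute 24 h, 38.6, 42.1, 14.9 and 14.5 CPM at acute 72 h and 29.1, 31.4, 37.3 and 38 CPM at acute 7 d. Chronic Itga2b values were 35.1, 24.4, 28.9 and 21.9 CPM at chronic 24 h, 36, 37, 15.9 and 11.7 CPM at chronic 72 h and 43.8, 31.4, 24.7 and 42.2 CPM at chronic 14 d. The acute 24 h libraries overlapped with healthy ones and all other injured libraries lay below both. It fell in 5 of the 6 comparisons with healthy, by most at chronic 72 h (log2 fold change -1.83 ± 0.35 SE, edgeR adjusted p = 0.000581) and by least at chronic 14 d (log2 fold change -1.32 ± 0.34 SE, edgeR adjusted p = 0.017). The last call was lost without chronic 14 d replicate 2 or 3. After repeated injury it was lower than after a single one at 24 h (log2 fold change -1.62 ± 0.36 SE, edgeR adjusted p = 0.00248). The 6 platelet and megakaryocyte markers summed to 9.56 to 15.2 CPM in healthy libraries, with Ppbp at 0 in all 4, and to 6.57 to 27.7 CPM elsewhere. Their part in Itga2b was not tested. Itgav, the alpha subunit of the TGF-beta-activating pairs, ranged from 48.7 to 252 CPM over the 27 libraries and was called in no comparison. At chronic 24 h it was at 99.1 and 122 CPM in replicates 1 and 2, of lower depth, and at 252 and 236 CPM in replicates 3 and 4.

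**Figure D3:**
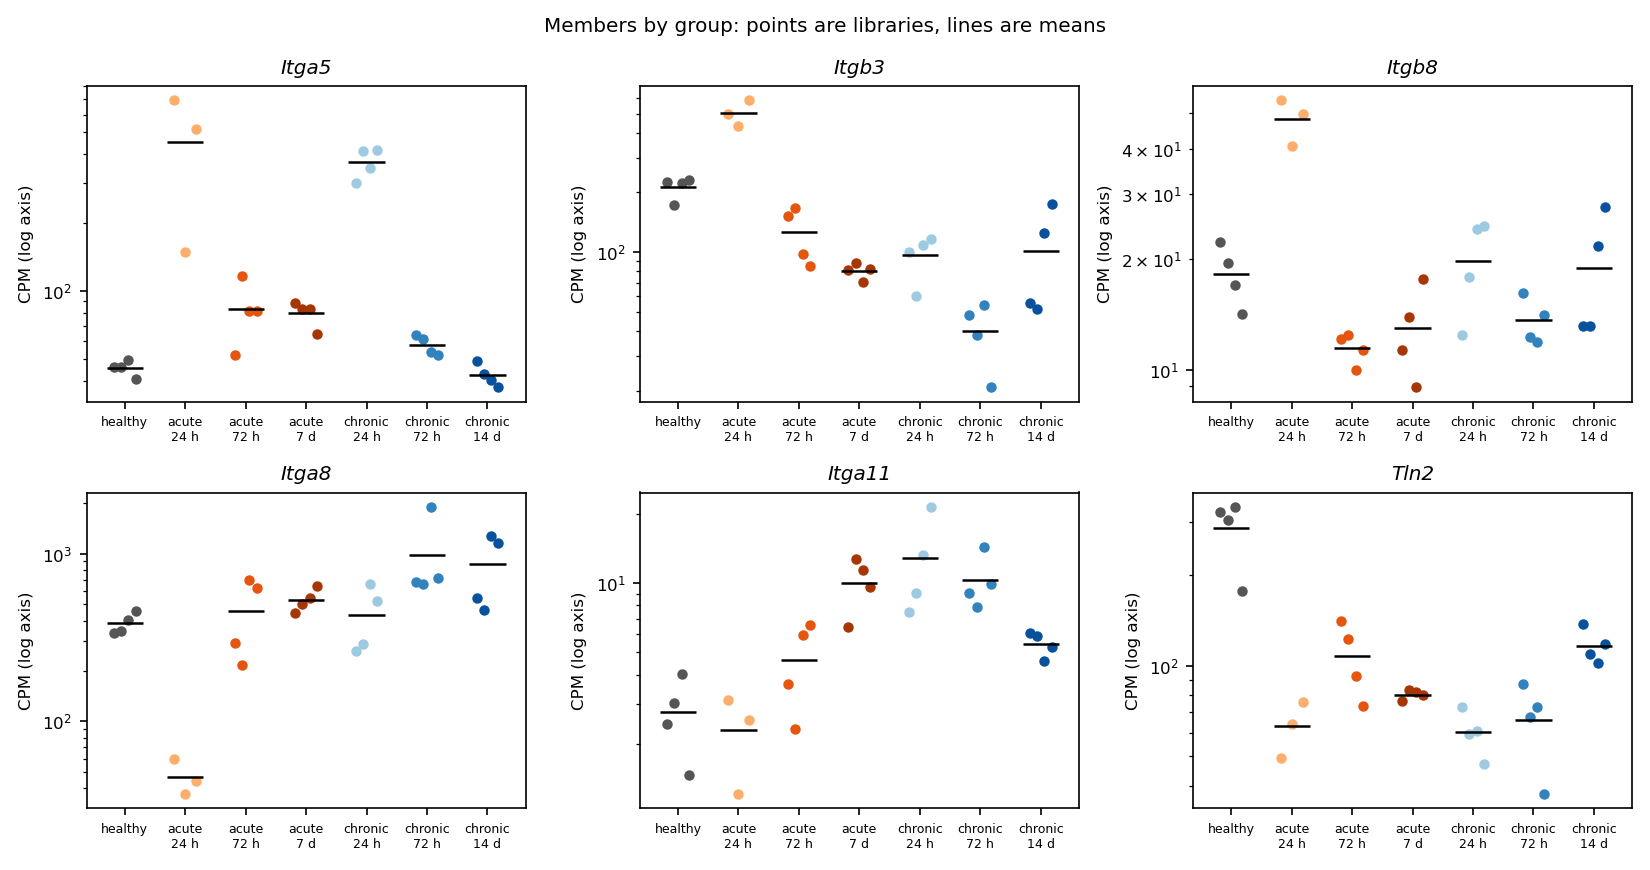
CPM (log axis) of Itga5, Itgb3, Itgb8, Itga8, Itga11 and Tln2 in the 7 groups, with points for libraries and lines for means. Itga5, Itgb3 and Itgb8 are above all healthy libraries and Itga8 below them at acute 24 h, Itga11 is highest at chronic 24 h (mean 12.8), and every injured library of Tln2 lies below every healthy one.

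Of the collagen receptors, Itga1 was the most abundant, and Itga11 and the scarce Itga2 were the ones that rose. Itga1 was at 646, 671, 715 and 497 CPM in healthy libraries. After 1 injection Itga1 was at 325, 334 and 382 CPM at acute 24 h, 684, 709, 668 and 572 CPM at acute 72 h and 482, 475, 357 and 351 CPM at acute 7 d. Chronic Itga1 values were 281, 313, 465 and 468 CPM at chronic 24 h, 280.0, 214, 291 and 205 CPM at chronic 72 h and 357, 285, 314 and 372 CPM at chronic 14 d. It lay below the healthy range in all libraries of acute 24 h, acute 7 d and the 3 chronic groups, but fell past 2-fold only at chronic 72 h (log2 fold change -1.35 ± 0.18 SE, edgeR adjusted p = 9.9e-06). At chronic 24 h the change was smaller (log2 fold change -0.73, edgeR adjusted p = 0.00274).

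Itga11, the receptor of fibrillar collagen on fibroblasts (ENSMUSG00000032243, chr9:62677826-62783982, plus strand), had low values, 2.45, 3.02, 4.04 and 1.47 CPM in healthy libraries. Acute Itga11 values were 3.12, 1.22 and 2.55 CPM at acute 24 h, 3.63, 2.34, 5.93 and 6.58 CPM at acute 72 h and 6.47, 12.7, 11.4 and 9.58 CPM at acute 7 d. After repeated injections Itga11 was at 7.49, 9.06, 13.2 and 21.4 CPM at chronic 24 h, 9.07, 7.86, 14.3 and 9.95 CPM at chronic 72 h and 6.08, 5.92, 4.57 and 5.29 CPM at chronic 14 d. All libraries of acute 7 d and of the 3 chronic groups were above all healthy ones. It rose at acute 7 d (log2 fold change 1.87 ± 0.38 SE, edgeR adjusted p = 0.000858), at chronic 24 h (log2 fold change 2.22 ± 0.38 SE, edgeR adjusted p = 9.04e-05) and at chronic 72 h (log2 fold change 1.91 ± 0.38 SE, edgeR adjusted p = 0.000821), and it was higher at chronic 24 h than at acute 24 h (log2 fold change 2.48 ± 0.43 SE, edgeR adjusted p = 0.000202). From chronic 24 h to chronic 14 d it was lower (log2 fold change -1.23 ± 0.37 SE, edgeR adjusted p = 0.0174), a call lost with depth class as a term and when either chronic 24 h replicate 4 or the third chronic 14 d replicate was left out. The 9 mesothelial and portal fibroblast markers summed to 63.1 to 82.8 CPM in healthy and 34.9 to 72.0 CPM in acute 24 h libraries. At acute 72 h and acute 7 d they summed to 127 to 218 and 199 to 328 CPM. At chronic 24 h, 72 h and 14 d the sums were 332 to 445, 171 to 331 and 132 to 211 CPM. The part of these cells in the Itga11 results was not tested. Itga2, which binds collagen in epithelial cells and platelets, ranged from 0 to 4.59 CPM and rose at acute 72 h (log2 fold change 4.30 ± 0.98 SE, edgeR adjusted p = 0.00253), at acute 7 d and at chronic 24 h. The acute 7 d call was lost without acute 7 d replicate 1. Itga10, known from cartilage, was not tested and never exceeded 0.566 CPM.

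Laminin-binding subunits stayed at or below 40.8 CPM in every library. Itga3, the laminin receptor of epithelia, was at 21.8, 24.2, 24.1 and 9.19 CPM in healthy libraries. After 1 injection Itga3 was at 19.1, 20.1 and 22.8 CPM at acute 24 h, 29.7, 17.7, 26.6 and 31.1 CPM at acute 72 h and 16.1, 24, 15.5 and 21.5 CPM at acute 7 d. After repeated injections Itga3 was at 40.8, 28.7, 24.7 and 26 CPM at chronic 24 h, 18.1, 18, 19.5 and 23.7 CPM at chronic 72 h and 14.3, 13.6, 12.3 and 5.73 CPM at chronic 14 d. Healthy replicate 4 stood apart from the other 3. All chronic 14 d libraries were below all chronic 24 h ones, and Itga3 was lower there (log2 fold change -1.39 ± 0.28 SE, edgeR adjusted p = 0.000991) without being called against healthy in either group. Itga6 (0 to 8.37 CPM) fell at acute 24 h (log2 fold change -2.73 ± 0.84 SE, edgeR adjusted p = 0.0142), where 2 of 3 libraries had no count, and rose at acute 7 d (log2 fold change 2.22 ± 0.64 SE, edgeR adjusted p = 0.0136). The fall was lost without healthy replicate 4 or acute 24 h replicate 1 or 3. Cholangiocyte markers, among them the ligand gene Spp1, summed to 56.7 to 106 CPM in healthy and 761 to 4799 CPM in acute 7 d libraries, and their part in the rise of Itga6, a subunit of epithelia, was not tested. Itga7 (0.866 to 7.24 CPM), the laminin receptor of muscle, rose at chronic 14 d (log2 fold change 1.52 ± 0.44 SE, edgeR adjusted p = 0.0341). That call was lost without healthy replicate 1, 2 or 3, without chronic 14 d replicate 2 or 4, without a filter on low counts, with depth class as a term and when only the pair of groups was fitted.

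Alpha4 and alpha9 bind VCAM1, osteopontin and tenascin, and alpha4 is carried mainly by leukocytes. Itga4 was at 0.997, 0.585, 3.2 and 0 CPM in healthy libraries. Acute Itga4 values were 0, 0.608 and 0.351 CPM at acute 24 h, 4.96, 4.07, 3.41 and 4.18 CPM at acute 72 h and 14.2, 19.9, 9.58 and 10.8 CPM at acute 7 d. Chronic Itga4 values were 13.5, 9.33, 2.19 and 3.84 CPM at chronic 24 h, 10.8, 11.1, 3.89 and 7.52 CPM at chronic 72 h and 4.73, 8.29, 9.14 and 11.6 CPM at chronic 14 d. All libraries of acute 72 h, acute 7 d, chronic 72 h and chronic 14 d were above all healthy ones. Itga4 rose at acute 7 d (log2 fold change 3.48 ± 0.72 SE, edgeR adjusted p = 0.00107), chronic 24 h (log2 fold change 2.55 ± 0.71 SE, edgeR adjusted p = 0.00789), chronic 72 h (log2 fold change 2.77 ± 0.71 SE, edgeR adjusted p = 0.00711) and chronic 14 d (log2 fold change 2.79 ± 0.71 SE, edgeR adjusted p = 0.0146). Chronic 24 h replicate 3 lay within the healthy range, and in the libraries of higher depth alone the log2 fold change at chronic 24 h was 1.34 and not called. The chronic 14 d call was lost without healthy replicate 2. Itga9, in contrast, was abundant at 83.6 to 863 CPM and was called in no comparison. All libraries of acute 7 d (240 to 299 CPM), chronic 72 h (216 to 346 CPM) and chronic 14 d (287 to 410 CPM) were below all healthy ones (426 to 560 CPM). The lowest values of Itga9 were single libraries, acute 72 h replicate 2 at 83.6 and acute 24 h replicate 3 at 125 CPM.

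Itgb1 gave 620.5 to 2355 CPM and was called in no comparison. At chronic 72 h its libraries, at 770, 620.5, 989 and 654 CPM, were all below the healthy ones (998 to 1880 CPM). Its highest libraries were chronic 24 h replicates 3 and 4, of higher depth, at 2355 and 2322 CPM, where replicates 1 and 2 had 1050 and 1183 CPM. Itgb3, which pairs with alphav and alphaIIb (ENSMUSG00000020689, chr11:104608000-104670476, plus strand), moved in both directions. It was at 225, 172, 224 and 231 CPM in healthy libraries. After 1 injection Itgb3 was at 497, 433 and 583 CPM at acute 24 h, 152, 167, 98.3 and 85.3 CPM at acute 72 h and 81.4, 88.3, 70.6 and 82.2 CPM at acute 7 d. Chronic Itgb3 values were 100.3, 59.99, 108 and 116 CPM at chronic 24 h, 48.1, 38, 53.9 and 20.8 CPM at chronic 72 h and 55.1, 51.4, 125 and 175 CPM at chronic 14 d. All acute 24 h libraries were above and all libraries of acute 72 h, acute 7 d, chronic 24 h and chronic 72 h were below the healthy range. Itgb3 rose at acute 24 h (log2 fold change 1.24 ± 0.35 SE, edgeR adjusted p = 0.00746). It fell at acute 7 d (log2 fold change -1.40 ± 0.33 SE, edgeR adjusted p = 0.00332), chronic 24 h (log2 fold change -1.15 ± 0.33 SE, edgeR adjusted p = 0.0099) and chronic 72 h (log2 fold change -2.41 ± 0.34 SE, edgeR adjusted p = 2.32e-05). The chronic 24 h call was lost without chronic 24 h replicate 2 and in the libraries of higher depth alone, where the log2 fold change was -0.91.

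At chronic 14 d Itgb3 also passed the test (log2 fold change -1.07 ± 0.33 SE, edgeR adjusted p = 0.0432), but chronic 14 d replicate 4 overlapped with healthy libraries and the call was lost in 12 of 18 alternatives, among them without any one of the 4 healthy libraries or of chronic 14 d replicates 1, 2 and 3. Between repeated and single injury at 24 h the difference in Itgb3 was large (log2 fold change -2.39 ± 0.36 SE, edgeR adjusted p = 4.2e-05), and no alternative removed it.

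Itgb5, the beta subunit of the vitronectin receptor (ENSMUSG00000022817, chr16:33829665-33949338, plus strand), was at 385, 398, 464 and 395 CPM in healthy libraries. Acute Itgb5 values were 248, 222 and 243 CPM at acute 24 h, 571, 455, 591 and 624 CPM at acute 72 h and 525, 752, 1093 and 729.6 CPM at acute 7 d. After repeated injections Itgb5 was at 553, 681, 666 and 699 CPM at chronic 24 h, 719, 566, 885 and 589.5 CPM at chronic 72 h and 498, 459.7, 366 and 327 CPM at chronic 14 d. The acute 24 h libraries were the lowest of the series and lay below all healthy ones, but the change was under 2-fold (log2 fold change -0.79, edgeR adjusted p = 0.00418). Itgb5 was called only between the injured groups, higher at chronic 24 h than at acute 24 h (log2 fold change 1.45 ± 0.21 SE, edgeR adjusted p = 2.81e-05). Itgb8 (ENSMUSG00000025321, chr12:119158022-119238802, minus strand), whose pair with alphav activates TGF-beta, was at 22.3, 19.5, 17 and 14.2 CPM in healthy libraries. After 1 injection Itgb8 was at 54.1, 40.7 and 49.6 CPM at acute 24 h, 12.1, 12.4, 10.0 and 11.3 CPM at acute 72 h and 11.3, 13.9, 8.94 and 17.6 CPM at acute 7 d. After repeated injections Itgb8 was at 12.4, 17.8, 24.1 and 24.6 CPM at chronic 24 h, 16.1, 12.3, 11.9 and 14.1 CPM at chronic 72 h and 13.1, 13.2, 21.8 and 27.8 CPM at chronic 14 d. It stood above all other libraries of the series at acute 24 h and rose there (log2 fold change 1.40 ± 0.26 SE, edgeR adjusted p = 0.000218), and it was lower at chronic 24 h than at acute 24 h (log2 fold change -1.28 ± 0.26 SE, edgeR adjusted p = 0.00104). Itgb4 (0 to 2.51 CPM), of epithelial hemidesmosomes, was called in no comparison, and Itgb6, an epithelial partner of alphav, was not tested and reached 0.400 CPM at most.

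**Figure D4:**
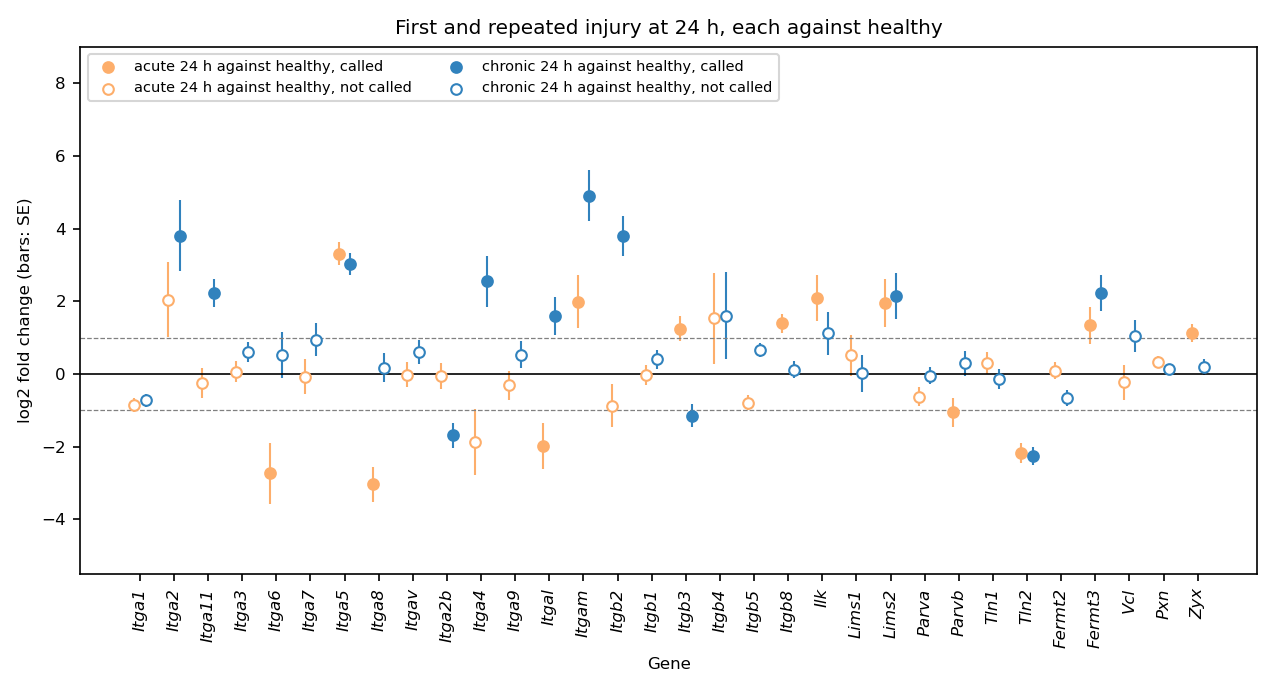
Log2 fold change against healthy (points, bars are SE) at acute 24 h (orange) and chronic 24 h (blue) for 32 tested members, filled where called and with dashed lines at 2-fold. Itga5, Lims2 and Fermt3 rise and Tln2 falls in both, while Itgb3 is at 1.24 and -1.15. Itgax and Itgb7 are not drawn because a group had at most 3 counts in every library.

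Leukocyte integrins, known from blood cells and not from HSCs, gave 5 of the 11 members that rose at chronic 24 h. Itgb2, the beta subunit shared by alphaL, alphaM and alphaX, was at 1.63, 2.93, 3.12 and 7.8 CPM in healthy libraries. Acute Itgb2 values were 3.21, 2.0 and 1.14 CPM at acute 24 h, 8.5, 5.45, 4.63 and 8.52 CPM at acute 72 h and 46.7, 105, 130.4 and 66.8 CPM at acute 7 d. Chronic Itgb2 values were 75.4, 88.8, 17.7 and 35.6 CPM at chronic 24 h, 23.6, 38.4, 8.72 and 16.1 CPM at chronic 72 h and 31.6, 37.2, 38.7 and 33.6 CPM at chronic 14 d. Every library of acute 7 d and of the 3 chronic groups was above all healthy ones. Itgb2 rose at acute 7 d (log2 fold change 4.49 ± 0.56 SE, edgeR adjusted p = 4.5e-06), chronic 24 h (log2 fold change 3.8 ± 0.54 SE, edgeR adjusted p = 1.06e-05), chronic 72 h (log2 fold change 2.47 ± 0.52 SE, edgeR adjusted p = 0.00151) and chronic 14 d (log2 fold change 3.18 ± 0.53 SE, edgeR adjusted p = 0.000545). With depth class as a term the chronic 14 d call was lost.

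Itgam, the alphaM of macrophages and neutrophils, was at 0, 0.390, 0.927 and 0 CPM in healthy libraries. After 1 injection Itgam was at 1.87, 0.955 and 1.23 CPM at acute 24 h, 1.33, 0.866, 3.09 and 1.94 CPM at acute 72 h and 14.6, 26.1, 21.7 and 11.4 CPM at acute 7 d. Chronic Itgam values were 10.2, 17.2, 6.05 and 8.08 CPM at chronic 24 h, 2.8, 2.43, 2.26 and 1.57 CPM at chronic 72 h and 2.3, 4.21, 8.9 and 8.23 CPM at chronic 14 d. The libraries of acute 24 h, acute 7 d and the chronic groups were all above the healthy ones, and acute 72 h replicate 2 overlapped with healthy. Itgam rose in all 6 comparisons with healthy, from acute 24 h (log2 fold change 1.98 ± 0.73 SE, edgeR adjusted p = 0.038) to acute 7 d (log2 fold change 5.74 ± 0.71 SE, edgeR adjusted p = 3.77e-06). The acute 24 h call was lost without healthy replicate 1, 2 or 4 or acute 24 h replicate 1 or 3, and the acute 72 h call without acute 72 h replicate 3. Gm49368, a protein-coding locus on the same strand, overlaps its exons, so its counts are uncertain.

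Itgal, the alphaL of lymphocytes, was at 3.81, 2.15, 6.15 and 8.32 CPM in healthy libraries. Acute Itgal values were 1.51, 1.04 and 1.32 CPM at acute 24 h, 7.71, 4.16, 1.87 and 3.79 CPM at acute 72 h and 16.7, 28.4, 33.2 and 35.6 CPM at acute 7 d. After repeated injections Itgal was at 31.6, 18.3, 3.68 and 8.4 CPM at chronic 24 h, 19.6, 25, 7.78 and 9.87 CPM at chronic 72 h and 13.5, 16.2, 16.7 and 10.1 CPM at chronic 14 d. All acute 24 h libraries were below and all acute 7 d and chronic 14 d libraries above the healthy range, while replicate 3 of chronic 24 h and of chronic 72 h lay within it. Itgal fell at acute 24 h (log2 fold change -1.98 ± 0.63 SE, edgeR adjusted p = 0.0169) and rose at acute 7 d (log2 fold change 2.47 ± 0.53 SE, edgeR adjusted p = 0.00153), chronic 24 h (log2 fold change 1.58 ± 0.52 SE, edgeR adjusted p = 0.0237) and chronic 72 h (log2 fold change 1.59 ± 0.52 SE, edgeR adjusted p = 0.0329), and it was not called at chronic 14 d (log2 fold change 1.46, edgeR adjusted p = 0.0831). The fall was lost without healthy replicate 4 or acute 24 h replicate 2 or 3. The rise at chronic 24 h was lost without healthy replicate 1 or 2 or chronic 24 h replicate 1 or 2 and came to a log2 fold change of 0.26 in the libraries of higher depth. At chronic 72 h it was lost in 11 of 19 alternatives, among them without healthy replicate 1, 2 or 3 or chronic 72 h replicate 1 or 2.

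Itgb7, the beta subunit of gut-homing lymphocytes, was at 0, 0.488, 1.43 and 0 CPM in healthy libraries. After 1 injection Itgb7 was at 0.267, 0.174 and 0 CPM at acute 24 h, 0.531, 0.433, 0 and 2.25 CPM at acute 72 h and 9.22, 23, 11.4 and 10.04 CPM at acute 7 d. After repeated injections Itgb7 was at 15.9, 7.96, 0 and 4.48 CPM at chronic 24 h, 8.8, 5.43, 2.1 and 3.45 CPM at chronic 72 h and 8.37, 8.55, 4.93 and 10.6 CPM at chronic 14 d. No library of acute 7 d, chronic 72 h or chronic 14 d overlapped with healthy, and chronic 24 h replicate 3 was at 0. Itgb7 rose at acute 7 d (log2 fold change 4.76 ± 1.13 SE, edgeR adjusted p = 0.00355), chronic 24 h (log2 fold change 3.82 ± 1.11 SE, edgeR adjusted p = 0.0108), chronic 72 h (log2 fold change 3.30 ± 1.10 SE, edgeR adjusted p = 0.0358) and chronic 14 d (log2 fold change 4.03 ± 1.11 SE, edgeR adjusted p = 0.0249). It had no more than 3 counts in any acute 24 h library, and it was at least 26.9-fold higher at chronic 24 h, against 3 counts per library. The chronic 72 h call was lost without healthy replicate 1, 2 or 4 or chronic 72 h replicate 1 or 2, and the chronic 14 d call without healthy replicate 1 or 2. Itgax, the alphaX of dendritic cells and macrophages, had no count in any healthy, acute 24 h or acute 72 h library. Against 3 counts per library it was at least 26.7-fold higher than healthy at acute 7 d, 10.7-fold at chronic 24 h, 6.0-fold at chronic 72 h and 6.0-fold at chronic 14 d. Itgae was not tested and never exceeded 0.590 CPM.

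The 6 leukocyte integrins summed to 5.44 to 16.1 CPM in healthy, 3.69 to 6.86 at acute 24 h, 9.59 to 18.2 at acute 72 h and 91.6 to 208 at acute 7 d libraries. In the same groups the 14 macrophage markers came to 174 to 701, 170.1 to 227, 233 to 617 and 1368 to 4121 CPM. In the chronic groups the integrins summed to 28.7 to 137 at 24 h, 22.2 to 72.0 at 72 h and 57.0 to 71.1 at 14 d, and the macrophage markers to 502 to 2412, 772 to 2427 and 375 to 1568 CPM. Marco was at 0 in all healthy libraries and no other macrophage marker was at 0 throughout a group. Neutrophil markers (8 genes) summed to 0.390 to 2.18 CPM in healthy and 3.78 to 69.0 CPM in injured libraries. T and NK cell markers (9) summed to 1.91 to 3.81 and 0.351 to 42.0 CPM, B cell markers (5) to 0 to 4.89 and 0.615 to 38.9 CPM, sinusoidal endothelial markers (8) to 119 to 399.6 and 31.4 to 591 CPM, and dendritic cell markers (6) to 63.9 to 92.3 and 36.0 to 140.2 CPM. The part of these cells in the leukocyte integrins was not tested.

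**Figure D5:**
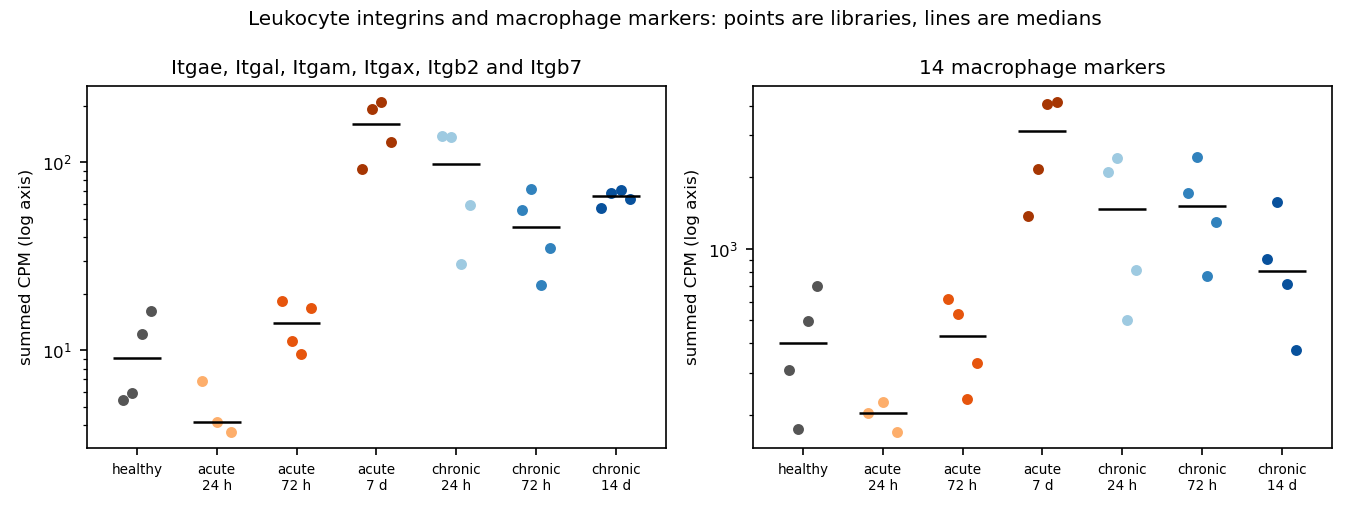
Summed CPM (log axis) of the 6 leukocyte integrins (left) and of 14 macrophage markers (right) in the 7 groups, with points for libraries and lines for medians. Both are lowest at acute 24 h and highest at acute 7 d, with medians of 4.17 and 204 CPM and of 160.1 and 3115 CPM.

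Of the talins and kindlins, which switch integrins on, Tln2 fell after every injury. Tln2 (ENSMUSG00000052698, chr9:67217087-67559703, minus strand) was at 325, 305, 338 and 178 CPM in healthy libraries. Acute Tln2 values were 49.5, 64 and 75.8 CPM at acute 24 h, 141, 123, 92.5 and 73.5 CPM at acute 72 h and 76.2, 82.9, 81.7 and 80.1 CPM at acute 7 d. Chronic Tln2 values were 73, 59.3, 60.9 and 47.1 CPM at chronic 24 h, 86.9, 67.4, 73.1 and 37.5 CPM at chronic 72 h and 138, 109, 102 and 118 CPM at chronic 14 d. Every injured library was below every healthy one. Tln2 fell by most at chronic 24 h (log2 fold change -2.25 ± 0.24 SE, edgeR adjusted p = 2.51e-07) and acute 24 h (log2 fold change -2.18 ± 0.27 SE, edgeR adjusted p = 1.95e-06) and by least at chronic 14 d (log2 fold change -1.29 ± 0.24 SE, edgeR adjusted p = 0.00111), and all 6 calls were kept in every alternative. Its paralog Tln1, the talin of most cells, was at 209, 268, 303 and 124 CPM in healthy libraries. After 1 injection Tln1 was at 230.1, 262 and 343 CPM at acute 24 h, 236, 191, 167 and 123 CPM at acute 72 h and 84.6, 115, 105 and 116 CPM at acute 7 d. Chronic Tln1 values were 198, 166, 173 and 276 CPM at chronic 24 h, 112, 79.7, 84.3 and 37.7 CPM at chronic 72 h and 119, 124, 121 and 95.8 CPM at chronic 14 d. All libraries of acute 7 d and chronic 72 h were below all healthy ones, of which replicate 4 was the lowest. Tln1 fell at acute 7 d (log2 fold change -1.10 ± 0.28 SE, edgeR adjusted p = 0.0057) and chronic 72 h (log2 fold change -1.53 ± 0.28 SE, edgeR adjusted p = 0.000415), and the first of these was lost without healthy replicate 3 or acute 7 d replicate 1. Creb3 overlaps exons of Tln1 on the other strand, as Trpt1 does for Fermt3.

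Fermt2, kindlin-2, was at 896, 865, 813 and 1219 CPM in healthy libraries. Acute Fermt2 values were 1033, 965 and 1038 CPM at acute 24 h, 544, 636, 537 and 494 CPM at acute 72 h and 325, 275, 576 and 566 CPM at acute 7 d. After repeated injections Fermt2 was at 433, 503, 795 and 679 CPM at chronic 24 h, 412, 432, 563 and 422 CPM at chronic 72 h and 642, 480.0, 507 and 662 CPM at chronic 14 d. Acute 24 h overlapped with healthy, and every library of the 5 other injured groups was below every healthy one. Fermt2 fell just past 2-fold at acute 7 d (log2 fold change -1.12 ± 0.22 SE, edgeR adjusted p = 0.000683) and chronic 72 h (log2 fold change -1.05 ± 0.22 SE, edgeR adjusted p = 0.00145). Both calls were lost without healthy replicate 4, the acute 7 d one also without acute 7 d replicate 1 or 2, and the chronic 72 h one also with scaling by library size alone, with depth class as a term and in the libraries of higher depth alone. Fermt3, the kindlin of blood cells, was at 4.08, 2.93, 8.43 and 1.56 CPM in healthy libraries. After 1 injection Fermt3 was at 9.88, 12.8 and 9.74 CPM at acute 24 h, 9.83, 8.57, 4.96 and 4.8 CPM at acute 72 h and 19.6, 32.1, 44.4 and 23.8 CPM at acute 7 d. After repeated injections Fermt3 was at 29.8, 31.3, 5.61 and 13.7 CPM at chronic 24 h, 17.3, 16.1, 6.3 and 10.4 CPM at chronic 72 h and 17.1, 15.1, 13.6 and 8.23 CPM at chronic 14 d. All libraries of acute 24 h and acute 7 d were above all healthy ones, while replicate 3 of chronic 24 h and of chronic 72 h and replicate 4 of chronic 14 d lay within the healthy range. Fermt3 rose in 5 of 6 comparisons, by most at acute 7 d (log2 fold change 2.81 ± 0.50 SE, edgeR adjusted p = 0.000245) and chronic 24 h (log2 fold change 2.23 ± 0.49 SE, edgeR adjusted p = 0.00126). In the libraries of higher depth alone the chronic 24 h value was 1.2 and not called. The calls at acute 24 h (log2 fold change 1.34 ± 0.51 SE, edgeR adjusted p = 0.0453), chronic 72 h (log2 fold change 1.55 ± 0.49 SE, edgeR adjusted p = 0.0261) and chronic 14 d (log2 fold change 1.67 ± 0.49 SE, edgeR adjusted p = 0.0339) were each lost without healthy replicate 1, 2 or 4. They were also lost without any one of the 3 acute 24 h libraries, without chronic 72 h replicate 1 or 2 and without chronic 14 d replicate 1, 2 or 3, in that order. Macrophage markers had a median sum of 204 CPM at acute 24 h against 403 CPM in healthy libraries, and neutrophil markers summed to 3.78 to 19.2 CPM there against 0.390 to 2.18 CPM. In the 4 other groups in which Fermt3 rose, the macrophage median lay between 809 and 3115 CPM. The part of these cells in Fermt3 was not tested.

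In the ILK, PINCH and parvin complex the kinase-like scaffold Ilk was at 7.98, 13.2, 7.08 and 5.29 CPM in healthy libraries. Acute Ilk values were 43.2, 32.4 and 31.7 CPM at acute 24 h, 9.39, 14.2, 15.4 and 13.8 CPM at acute 72 h and 2.18, 11, 1.05 and 9.89 CPM at acute 7 d. Chronic Ilk values were 7.94, 16.2, 23.6 and 24.9 CPM at chronic 24 h, 5.33, 6.71, 1.56 and 5.56 CPM at chronic 72 h and 9.05, 10.4, 1.92 and 1.91 CPM at chronic 14 d. The acute 24 h libraries were the highest of the series, and Ilk rose in that group alone (log2 fold change 2.09 ± 0.63 SE, edgeR adjusted p = 0.013). Exons of Ilk are overlapped on the other strand by Taf10, at 313 ± 11.6 CPM in healthy and 611 ± 38.3 CPM in acute 24 h libraries, and by Rrp8, at 29.4 ± 1.02 and 66.4 ± 4.70 CPM (SD, n = 4 and 3). As strand of counting is not stated, reads of these genes cannot be told apart from those of Ilk. Lims2, a PINCH protein, was at 1.81, 7.22, 8.59 and 15.1 CPM in healthy libraries. After 1 injection Lims2 was at 45, 26.6 and 23.4 CPM at acute 24 h, 0.620, 25.3, 17.1 and 14.8 CPM at acute 72 h and 12.1, 11.7, 5.96 and 11.3 CPM at acute 7 d. Chronic Lims2 values were 19.3, 25.4, 59.1 and 40.1 CPM at chronic 24 h, 13.7, 10.7, 7.63 and 14.8 CPM at chronic 72 h and 13.2, 20.9, 9.26 and 8.23 CPM at chronic 14 d. Both 24 h groups were above all healthy libraries and the other groups overlapped with healthy. Lims2 rose at acute 24 h (log2 fold change 1.95 ± 0.66 SE, edgeR adjusted p = 0.0255) and chronic 24 h (log2 fold change 2.14 ± 0.64 SE, edgeR adjusted p = 0.0127). The acute call was lost without healthy replicate 1 or 2 or acute 24 h replicate 1. Its abundant paralog Lims1 (29 to 568 CPM) was called in no comparison, with its lowest values in chronic 24 h replicate 2 and chronic 14 d replicate 1.

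Parva, alpha-parvin, was at 347, 391, 389.5 and 515 CPM in healthy libraries. Acute Parva values were 254, 241 and 306 CPM at acute 24 h, 213, 335, 245 and 229 CPM at acute 72 h and 134, 153, 168 and 158 CPM at acute 7 d. After repeated injections Parva was at 322, 354, 329 and 585 CPM at chronic 24 h, 251, 234, 203 and 299.7 CPM at chronic 72 h and 181, 343, 387 and 205 CPM at chronic 14 d. All acute 7 d libraries were below all others of the series, and Parva fell there (log2 fold change -1.42 ± 0.23 SE, edgeR adjusted p = 9.25e-05). Parvb, beta-parvin, stayed between 0.881 and 5.55 CPM. It fell at acute 24 h (log2 fold change -1.05 ± 0.40 SE, edgeR adjusted p = 0.0442) and was higher at chronic 24 h than at acute 24 h (log2 fold change 1.34 ± 0.40 SE, edgeR adjusted p = 0.0192). The fall was lost without healthy replicate 1, 2 or 3 or any acute 24 h library, and the difference without acute 24 h replicate 2 or 3 or chronic 24 h replicate 1.

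Vinculin, paxillin and zyxin join growing adhesions. Zyx was at 357, 407, 410.1 and 419 CPM in healthy libraries. After 1 injection Zyx was at 919, 875 and 827 CPM at acute 24 h, 369, 357, 212 and 249.7 CPM at acute 72 h and 267, 305, 263 and 405 CPM at acute 7 d. After repeated injections Zyx was at 357, 470.4, 531 and 459 CPM at chronic 24 h, 229, 274, 107 and 315 CPM at chronic 72 h and 223, 270.3, 222 and 254 CPM at chronic 14 d. Its acute 24 h libraries were the highest of the series, and it rose in that group alone (log2 fold change 1.13 ± 0.25 SE, edgeR adjusted p = 0.00105). Epha1, which overlaps its exons on the other strand, had a mean of 7.09 ± 0.0963 CPM there (SD, n = 3). Vcl was at 68.7, 113, 91.4 and 125 CPM in healthy libraries. Acute Vcl values were 82.3, 57.6 and 114 CPM at acute 24 h, 108, 83.1, 103 and 84.3 CPM at acute 72 h and 40.2, 58.6, 48.1 and 76.8 CPM at acute 7 d. Chronic Vcl values were 98.8, 146, 290.5 and 284 CPM at chronic 24 h, 119, 122, 50.3 and 20.9 CPM at chronic 72 h and 28, 28.7, 70.5 and 87.7 CPM at chronic 14 d. All chronic 14 d libraries were below all chronic 24 h ones, and at chronic 24 h replicates 3 and 4, of higher depth, were far above replicates 1 and 2. There the change against healthy was not called (log2 fold change 1.04, edgeR adjusted p = 0.0815). Vcl was lower at chronic 14 d than at chronic 24 h (log2 fold change -1.93 ± 0.46 SE, edgeR adjusted p = 0.0039). Ap3m1 overlaps exons of Vcl on the other strand and had means of 642 ± 290.2 CPM at chronic 24 h and 239.6 ± 65.3 CPM at chronic 14 d (SD, n = 4), so the same uncertainty holds. It holds too for Lims2, Itga4, Itga7 and Itgav, whose exons Gpr17, Cerkl, Mettl7b and Gm13684 overlap on the other strand, and for Itga1 with Gm49395 on the same strand. Pxn stayed between 70.7 and 122 CPM and was called in no comparison.

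Around the members, a list of 58 partners (kinases, actin linkers and membrane proteins at adhesions, 57 tested) and a list of 30 ligands (29 tested) were followed. Like the members, both were listed with earlier results of these data known. Of the partners 12 rose and 3 fell at acute 24 h (21.1% and 5.26%, against 9.41% and 12.5% of all genes). At acute 72 h 9 rose and 1 fell (15.8% and 1.75%, against 8.23% and 4.33%), and at acute 7 d 10 and 5 did (17.5% and 8.77%, against 9.23% and 5.64%). At chronic 24 h 16 rose and 2 fell (28.1% and 3.51%, against 11.2% and 8.11%), at chronic 72 h 7 and 6 (12.3% and 10.5%, against 7.88% and 4.2%), and at chronic 14 d 8 and 1 (14% and 1.75%, against 4.55% and 1.17%). Fblim1, migfilin, which links filamin to kindlin, came highest at acute 24 h (means of 596 against 42.3 CPM, log2 fold change 3.81 ± 0.17 SE, edgeR adjusted p = 7.45e-13), followed by the adhesion co-receptor Sdc4 (1075 against 116 CPM, log2 fold change 3.22 ± 0.33 SE, edgeR adjusted p = 2.04e-07). Fhl2, a LIM protein of adhesions and nucleus, came highest at chronic 24 h (137 against 3.07 CPM, log2 fold change 5.48 ± 0.51 SE, edgeR adjusted p = 3.91e-08). From chronic 24 h to chronic 14 d 13 partners were lower and 1 higher (22.8% and 1.75%, against 6.11% and 6.65% of all genes). The 3 furthest down were Fhl2 (-2.91), the actin crosslinker Actn1 (22 against 145 CPM, log2 fold change -2.72 ± 0.26 SE, edgeR adjusted p = 1.92e-07) and Fblim1 (-2.37). Tns2, a tensin, was the 1 that was higher (419.9 against 209.9 CPM, log2 fold change 1.00 ± 0.33 SE, edgeR adjusted p = 0.0297). The median log2 fold change of the partners was 0.24 at chronic 24 h and 0.12 at acute 24 h against healthy, beside -0.03 and -0.12 over all genes.

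Of the ligands 8 rose and 8 fell at acute 24 h (27.6% each way, against 9.41% and 12.5% of all genes). At acute 72 h 7 rose and 1 fell (24.1% and 3.45%, against 8.23% and 4.33%), and at acute 7 d 7 rose (24.1%, against 9.23%). At chronic 24 h 14 rose and 2 fell (48.3% and 6.9%, against 11.2% and 8.11%), with medians of 1.05 over the ligands and -0.03 over all genes. At chronic 72 h 6 rose (20.7%, against 7.88%) and at chronic 14 d 5 (17.2%, against 4.55%), and in these groups 3 and 2 were lower at an edgeR adjusted p below 0.05 by less than 2-fold. Tenascin-C (Tnc), a ligand of alpha9, alpha8 and alphav, had means of 1877 against 28.1 CPM at chronic 24 h and in healthy libraries (log2 fold change 6.06 ± 0.46 SE, edgeR adjusted p = 1.83e-09). Thbs1 (5691 against 98.1 CPM) and the collagen gene Col1a1 (5648 against 230.4 CPM) came next with log2 fold changes of 5.86 and 4.62. At acute 24 h Thbs1 (4.40), Ccn2 (3.70) and Tnc (3.28) were highest, and the fibrinogen genes Fgb (-4.43) and Fgg (-4.32) and fibulin-5, Fbln5 (-4.15), lowest. Hepatocytes make fibrinogen. The 9 hepatocyte markers summed to 395 to 2118 CPM in healthy and 109 to 260.0 CPM in acute 24 h libraries, and their part in these falls was not tested. From chronic 24 h to chronic 14 d 14 ligands were lower and 3 higher (48.3% and 10.3%, against 6.11% and 6.65% of all genes).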

How the data were processed

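HSCs were isolated from healthy and CCl4-treated mice and sorted by retinoid fluorescence, and 27 single-end RNA-seq libraries in 7 groups were analysed. The authors deposited raw counts per gene for 53379 Ensembl genes, not normalised and with no libraries pooled. According to the submitters' processing notes and the methods, reads were checked with FastQC and processed with STAR and StringTie on GRCm38. Versions, the step from StringTie to whole counts and the strand of counting are not given in the sources used here, so reads from overlapping genes on opposite strands cannot be told apart. All columns of values matched a library (0 did not). Gene names and exon lengths came from GENCODE M21, in which 53274 IDs were found and 105 were not, and 16198 genes had no count.

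Counts were filtered by expression (filterByExpr), scaled with edgeR's TMM factors and fitted over all 7 groups with edgeR 4.0.16 (limma 3.58.1, R 4.3.3). Quasi-likelihood tests were adjusted over all 18758 genes by the Benjamini-Hochberg method, with calls at an adjusted p below 0.05 and above 2-fold. SE is the standard error of the log2 fold change implied by that test. Counting error is part of the SE, and the lower totals of 8 libraries, 6.31 to 7.44 M at chronic 14 d for example, limit genes under a few CPM. Each repeat was a separate experiment per the methods, and p-values measure the spread between these libraries. No 2 libraries of a group agreed within sampling noise (chi-square per gene 15.5 or more over 39 pairs, correlation of log2 CPM at most 0.96).

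The members, the lists of partners, ligands and cell markers, and the tests were chosen with earlier results of these data known. Values in every library were given for the 23 members called at least once that reached a mean of 10 CPM in a group. The others were given by range, with test results for the 5 called members under 10 CPM. From the context lists at most 3 called genes at either end of the order by log2 fold change could be named per comparison. A gene with at most 3 counts in every library of a group was given a lower bound of its fold against 3 counts per library. Alternatives were other scalings and filters, DESeq2 1.42.0, a fit of only the groups compared, no fold minimum, depth class (below or above 9 M), a block for the replicate number, and leaving out single libraries. The scripts were tested on simulated data. Promoters came from RefSeq on GRCm38.p6, in which 26 members had an entry and 11 did not, and motifs were searched on both strands. Plots came from matplotlib 3.10.9 and tables from pandas 2.3.3 in Python 3.11.15.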

Additional observations from a re-analysis of the deposited data

Results flagged for a closer look

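In groups of 4 libraries, 138 sets of values were searched for a library far from the others, and 8 had one (chance gives about 1 in 20). On the low side these were Itga3 in healthy replicate 4 (9.19 CPM, the others 21.8 to 24.2), Itgb3 in healthy replicate 2 (172 CPM, the others 224 to 231) and Tln2 in healthy replicate 4 (178 CPM, the others 305 to 338). Lims2 in acute 7 d replicate 3 (5.96 CPM, the others 11.3 to 12.1) and Tln1 in chronic 14 d replicate 4 (95.8 CPM, the others 119 to 124) were low as well. On the high side were Itga8 in chronic 72 h replicate 3 (1907 CPM, the others 659 to 714), Fermt2 in the same library (563 CPM, the others 412 to 432) and Parva in chronic 24 h replicate 4 (585 CPM, the others 322 to 354).

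For 14 members the change at 24 h differed between repeated and single injury by the edgeR test between these groups. On the log2 scale the difference was 2.48 for Itga11, 3.26 for Itga6, 3.21 for Itga8, 4.42 for Itga4, 3.56 for Itgal, 2.92 for Itgam, 4.67 for Itgb2, 1.45 for Itgb5 and 1.34 for Parvb. The fold was at least 10.97 for Itgax and at least 26.9 for Itgb7. The difference was -1.62 for Itga2b, -2.39 for Itgb3 and -1.28 for Itgb8. In the libraries of higher depth alone, of chronic 24 h replicates 3 and 4 only, the calls of Itgam, Itgb7 and Parvb were lost.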

How the results depend on the processing

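Of 90 calls of a member in a comparison 56 were kept under every alternative, 34 were lost under at least 1, and 0 were reversed in 1666 values. With no fold minimum 5 members were lower at chronic 24 h, 6 at chronic 14 d and 4 at acute 72 h than in healthy, 5 at chronic 24 h than at acute 24 h, and 8 lower and 1 higher (Tln2) at chronic 14 d than at chronic 24 h. In the last comparison, with 0 members higher, DESeq2 size factors and the fit of only the 2 groups gave 1 (Tln2), depth class as a term 1 (Itga8), and library size alone and DESeq2 2 (Itga8 and Tln2). At chronic 14 d against healthy 4 members were higher (7 before) without a filter, with depth class as a term and in the fit of only the 2 groups. At acute 24 h 5 were higher without a filter (8 before) and 3 lower in the fit of only the 2 groups (5 before), where also 3 were higher at chronic 72 h (9 before) and 1 at acute 72 h (2 before). The cause was not tested.

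Without 1 library at a time, the members higher and lower than healthy ranged from 10 to 11 and 2 to 3 at chronic 24 h, from 5 to 9 and 5 to 6 at chronic 72 h, from 3 to 7 and 1 to 5 at chronic 14 d, from 5 to 8 and 2 to 4 at acute 24 h, from 1 to 3 and 2 to 2 at acute 72 h, and from 10 to 10 and 4 to 6 at acute 7 d. They ranged from 10 to 11 and 3 to 4 at chronic 24 h against acute 24 h, and from 0 to 2 and 3 to 7 at chronic 14 d against chronic 24 h. Any one of the 3 acute 24 h libraries lowered the count of lower members from 5 to 2 or 3, and acute 72 h replicate 3 lowered that of higher ones from 2 to 1.

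Same-numbered libraries deviated with correlations of -0.172 to 0.149, and a library matched its own number best in 0 to 2 cases a comparison. The libraries were therefore not treated as pairs. This check cannot show whether replicates 1 and 2 differed as a set from replicates 3 and 4. With the replicate block 10 members were higher at chronic 24 h (11 before) and 7 at chronic 72 h (9 before), and it moved no count by over 1.5 times. The terms for replicates 1 and 2 against 3 and 4 and the libraries of higher depth alone were chosen after the data had been seen.

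Over all genes, those lower at chronic 14 d than in healthy numbered 219, and 106 with library size alone, 143 without a filter, 122 in the fit of only the 2 groups, 655 with no fold minimum and 106 to 438 without 1 library. Those higher numbered 854, and 427 with depth class as a term and 500 in the fit of only the 2 groups. With no fold minimum the genes called went from 2095 to 3201 higher and 1522 to 2617 lower at chronic 24 h, from 788 to 1688 lower at chronic 72 h, from 1765 to 2915 higher at acute 24 h, from 1543 to 2451 higher and 812 to 1653 lower at acute 72 h, from 1058 to 1988 lower at acute 7 d, from 573 to 1373 lower at chronic 24 h against acute 24 h, and from 1248 to 1895 higher and 1147 to 2428 lower at chronic 14 d against chronic 24 h. Scaling by library size alone moved the median of all genes to 0.10 to 0.18 (log2) at chronic 72 h, chronic 14 d, acute 72 h and acute 7 d against healthy and at chronic 14 d against chronic 24 h.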

Other observations

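Itga8 was lower in replicates 1 and 2 than in replicates 3 and 4 in all 6 groups of 4 libraries. Of the 18758 genes tested 19 (0.101%) showed this in all 6 groups and 15 (0.08%) showed the opposite. The labels give these libraries no common date or batch.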
